A study of Mus musculus with 9 samples.

Results

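The 10 immediate early genes, Fos, Fosb, Fosl1, Jun, Junb, Egr1, Egr2, Ier2, Ier3 and Nr4a1, were followed by symbol in a table of RNA-seq counts from cultured mouse neural stem cells. All 10 of the 10 symbols had a row among the 24503 genes of the table, and all 10 passed the filter on low counts, which left 13560 genes for testing. The cells came from the cortex of E13.5 embryos, were enriched as neurospheres and were expanded on laminin (5 µg/mL) with FGF at 10 ng/mL and EGF at 20 ng/mL. Every group, the control included, carried Phf2flox/flox, a floxed allele in cells otherwise labelled wild type. Viral short hairpin RNAs against Rad21 (shRad21_1, shRad21_2) or a non-targeting one (shNT) were given, and each of the 3 groups had 3 libraries. The labels give no time between infection and harvest and do not say whether the libraries of a group were separate cultures. The p-values set each difference against the spread of these libraries only, and part of that spread may be technical. They may be too small if libraries of a group were not independent.

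Immediate early genes are transcribed within minutes of a growth factor or other stimulus, without new protein being made first, and their mRNAs are short-lived. In cells kept in FGF and EGF the signal runs from receptor tyrosine kinases through RAS and ERK to factors such as ELK1, SRF and CREB already present at the promoters. FOS and JUN family proteins pair into the AP-1 transcription factor, EGR proteins are zinc finger factors that bind GC-rich sites, and NR4A1 is an orphan nuclear receptor. Rad21 encodes the kleisin subunit that closes the cohesin ring, which holds sister chromatids together and extrudes chromatin loops. The comparisons ask how the levels of these mRNAs differ when Rad21 mRNA is lowered by either hairpin.

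The promoters of 5 members are printed because they span the range of the response described below: Fos, Fosb, Junb and Ier3 were called lower with shRad21_2, and Jun was not. They are RefSeq sequences on build GRCm38.p6, in the direction of the gene, and cover the 250 bases before the RefSeq start of transcription. The GENCODE M21 annotation places some starts elsewhere. Its start lies inside the printed stretch for Ier3 (35821684) and Fosb (19310051), and downstream of the RefSeq start for Junb (84978718). Capitals mark matches to any of the motifs searched on both strands, which were the cyclic AMP response element TGACGTCA, its core TGACG (contained in the longer element), the AP-1 site TGANTCA, the EGR site GCGTGGGCG, the Sp1 site GGGCGG, the TATA box TATAAA and the CArG box bound by SRF. The stretches lie at chr12:85473640-85473889 (+) for Fos, chr7:19310046-19310295 (-) for Fosb, chr8:84978749-84978998 (-) for Junb, chr17:35821463-35821712 (+) for Ier3 and chr4:95052223-95052472 (-) for Jun.
Fos: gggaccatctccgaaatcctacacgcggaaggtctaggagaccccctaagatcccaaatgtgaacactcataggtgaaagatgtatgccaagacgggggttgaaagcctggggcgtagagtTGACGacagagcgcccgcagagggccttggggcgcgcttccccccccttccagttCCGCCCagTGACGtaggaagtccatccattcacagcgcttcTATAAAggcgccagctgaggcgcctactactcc
Fosb: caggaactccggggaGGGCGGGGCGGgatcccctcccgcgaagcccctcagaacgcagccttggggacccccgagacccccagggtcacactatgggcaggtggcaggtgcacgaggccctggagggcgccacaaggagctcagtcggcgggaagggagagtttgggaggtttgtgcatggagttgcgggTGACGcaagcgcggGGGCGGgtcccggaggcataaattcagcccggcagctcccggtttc
Junb: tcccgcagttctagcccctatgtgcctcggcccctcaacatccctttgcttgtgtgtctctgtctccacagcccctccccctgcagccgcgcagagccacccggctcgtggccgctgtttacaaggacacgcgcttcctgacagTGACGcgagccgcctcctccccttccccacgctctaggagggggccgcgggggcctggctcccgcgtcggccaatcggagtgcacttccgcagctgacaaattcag
Ier3: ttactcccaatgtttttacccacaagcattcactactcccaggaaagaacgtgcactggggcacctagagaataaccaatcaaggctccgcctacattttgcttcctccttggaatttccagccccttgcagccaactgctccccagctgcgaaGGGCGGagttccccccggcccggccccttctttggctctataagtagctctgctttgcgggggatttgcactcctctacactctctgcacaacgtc
Jun: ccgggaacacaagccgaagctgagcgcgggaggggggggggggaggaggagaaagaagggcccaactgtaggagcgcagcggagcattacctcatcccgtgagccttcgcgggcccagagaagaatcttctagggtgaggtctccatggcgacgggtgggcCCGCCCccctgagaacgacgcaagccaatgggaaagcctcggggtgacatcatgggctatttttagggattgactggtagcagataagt

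RefSeq promoters were used for 7 of the 10 members, and the motifs were searched from 250 bases before to 50 bases after each start. No promoter was matched for Fosl1 or Ier2. Member promoters on chromosome 18 were left out of the search, so the counts of members say nothing of Egr1. A member was counted when any of its RefSeq starts held the motif (5 starts for Egr2, 1 for each of the others), whereas the shares are per promoter. TGACG was found in 5 of the 7 members and in 20.8% of 32851 promoters of the same length. In Fos it lay at -129 to -125 and -66 to -62, in Fosb at -60 to -56 and in Junb at -106 to -102. Positions count the first base transcribed in RefSeq as 1. GGGCGG was found in 6 of 7 members and 35.7% of promoters. TATAAA was found in Fos at -33 to -28 and in Junb at 1 to 6, just past the printed stretch, and in 13.6% of all promoters. The Junb match thus lies after the RefSeq start but before the GENCODE start. The CArG box was matched in 1 of 7 members, Egr2, at 4 of its 5 starts, and in 1.63% of promoters. TGACGTCA, TGANTCA and GCGTGGGCG had no match in the windows of the 7 members and were found in 1.79%, 7.81% and 0.612% of promoters. A match is a run of letters and not a measured binding site, and no match says only that the letters are absent from this window.

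The libraries held 34780003 to 46644607 counts. A count of 0 allows up to 3 counts, or 0.0664 to 0.088 CPM (counts relative to library totals scaled for composition by TMM). That limit covers counting error only. Rad21 itself stood at 180 ± 6.92 CPM with shRad21_1 and 85.3 ± 5.19 CPM with shRad21_2, against 479 ± 45.0 CPM in shNT (SD, n = 3 each), and the groups did not overlap. Libraries of a group were not equally close. Replicates 2 and 3 of shRad21_1 had a chi-square per gene of 2.18 and those of shNT 3.18, whereas the remaining pairs ranged from 22.9 to 69.6. All pairs differed by more than sampling noise, and all 9 libraries were counted. shRad21_1 replicate 1 was the library farthest from its group in the members, with a chi-square per member of 2753 and 2869 against its group's other libraries and 4.04 between those.

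In the GENCODE M21 annotation (GRCm38) the genes lie on chromosomes 12 (Fos), 7 (Fosb), 19 (Fosl1), 4 (Jun), 8 (Junb and Ier2), 18 (Egr1), 10 (Egr2), 17 (Ier3) and 15 (Nr4a1). They are short genes: 9 of 10 were under 10 kb from end to end, against 24.2% of the tested genes with a position, and their median length was 4.7 kb against 24.85 kb. Jun and Ier2 had a single exon. In shNT, ordered by CPM per kb of exon, Egr1 came first at 126 ± 32.7, then Jun at 77.0 ± 2.05, Ier2 at 60.8 ± 19.7, Fos at 52.5 ± 11.1, Ier3 at 45.9 ± 9.75 and Junb at 39.0 ± 12.8 (SD, n = 3). Egr2 (9.83 ± 5.26), Nr4a1 (9.09 ± 4.87), Fosb (3.26 ± 0.878) and Fosl1 (0.125 ± 0.103) were lower, on the same scale. From Jun to Junb the ranges of mean ± SD of neighbours in that order overlapped, as did those of Egr2 and Nr4a1, whereas those of Egr1 and Jun, Junb and Egr2, Nr4a1 and Fosb, and Fosb and Fosl1 did not. With shRad21_2 Jun came first at 77.8 ± 9.28 CPM per kb, ahead of Egr1 at 42.4 ± 5.45 and Ier2 at 34.3 ± 2.99, and Fos stood sixth at 6.73 ± 0.493.

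FOS proteins must pair with a JUN protein to bind DNA, and Fosb and Fos had the largest fitted falls among the members with shRad21_2. Fos had 14.8, 15.7 and 17.1 CPM in the shRad21_2 libraries, against 93.3, 137 and 140 CPM in the shNT libraries. With shRad21_1 it had 9.21 CPM in replicate 1 but 116 and 119 CPM in replicates 2 and 3. All shRad21_2 libraries thus lay below all shNT libraries, while the shRad21_1 libraries fell on either side of the shRad21_2 values and overlapped shNT. With shRad21_2 Fos fell by 2.96 relative to shNT on the log2 scale (7.8-fold lower, SE 0.69, edgeR quasi-likelihood adjusted p = 0.00666). Under shRad21_1 the fitted log2 fold change was -0.60 (SE 0.64, adjusted p = 0.6) and was not called. Without shRad21_1 replicate 1 that value was -0.07, and without shRad21_1 replicate 2 or 3 it was -0.94 and -0.98.

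Fosb, the paralogue whose truncated product accumulates in stimulated neurons, was low in the same 4 libraries as Fos. Its level was 1.02, 0.939 and 0.913 CPM with shRad21_2, against 14.2, 24.7 and 22.0 CPM in shNT. In shRad21_1 it was 1.01 CPM in replicate 1 and 18.0 and 20.2 CPM in replicates 2 and 3. Counts behind the low values were 46, 32 and 32 with shRad21_2 and 37 in shRad21_1 replicate 1. With shRad21_2 Fosb fell by 4.40 (21.1-fold lower, SE 0.84, edgeR adjusted p = 0.00241), the largest fitted change among the 10 members in any comparison. Its value with shRad21_1 was -0.64 (SE 0.69, adjusted p = 0.608), not called, and -0.09 without shRad21_1 replicate 1. Fosl1, which encodes FRA-1, was near the detection limit throughout, with 9, 15 and 14 counts for shRad21_1, 6, 8 and 3 for shRad21_2 and 3, 8 and 22 for shNT. The Fosl1 groups overlapped in both comparisons with shNT, and no difference was detectable at this depth.

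**Figure D1:**
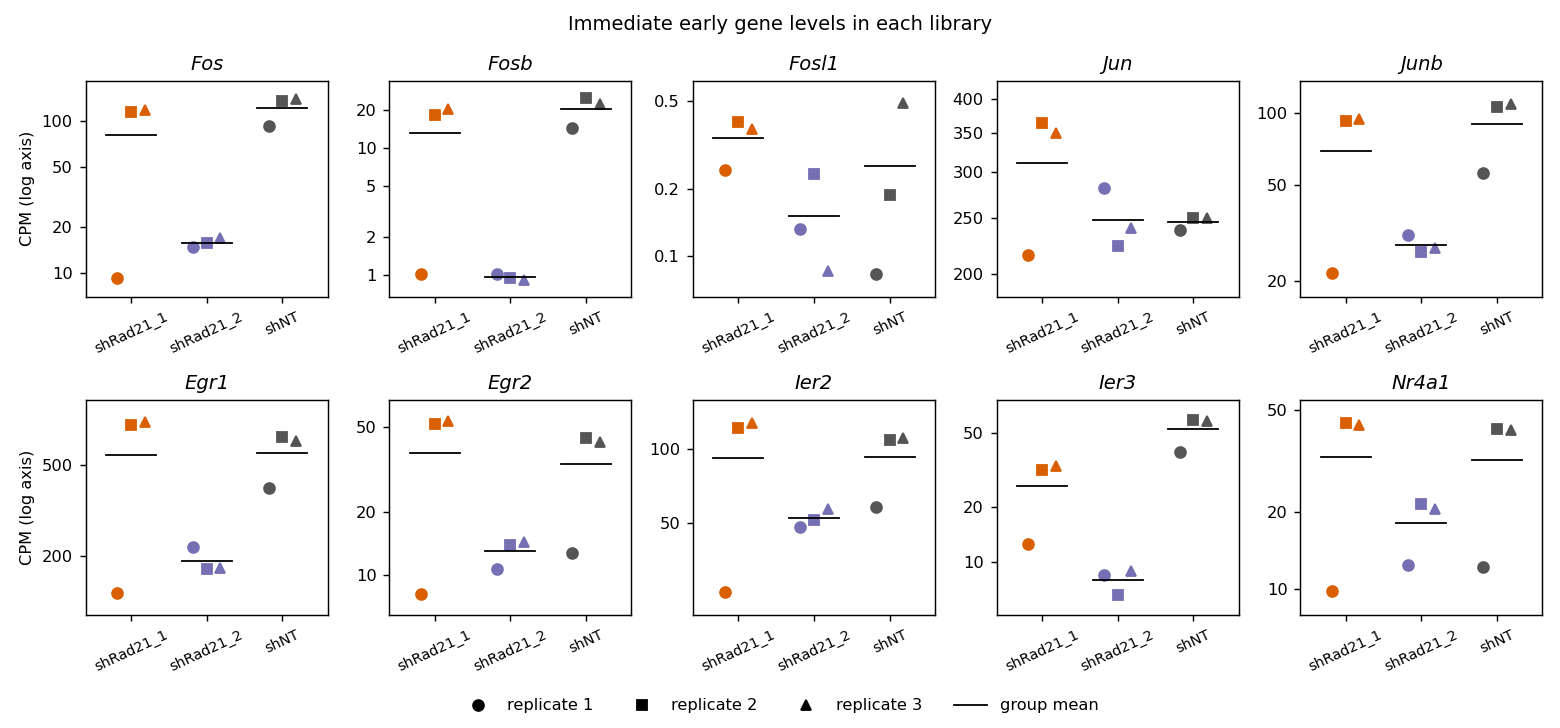
Level of each of the 10 immediate early genes in CPM (logarithmic axis, different in each panel) in the 3 libraries of shRad21_1, shRad21_2 and shNT, with a marker shape for each replicate number and a line at the group mean. Fos stands between 14.8 and 17.1 CPM in the shRad21_2 libraries and at 9.21 CPM in shRad21_1 replicate 1, whereas the other shRad21_1 libraries and shNT lie at 93.3 CPM or above, and Jun shows no such gap.

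Jun, which can bind AP-1 sites as a homodimer as well as with FOS proteins, was the member that differed least between shRad21_2 and shNT. It had 281, 223 and 240 CPM with shRad21_2, against 237.9, 249.1 and 249.4 CPM in shNT, and the groups overlapped. In shRad21_1 it had 216, 364 and 350 CPM. The fitted log2 fold change was 0.01 with shRad21_2 (SE 0.17, edgeR adjusted p = 0.953) and 0.34 with shRad21_1 (SE 0.17, adjusted p = 0.249). The sign with shRad21_2 turned to -0.06 with library totals in place of TMM scaling, and it also turned without shNT replicate 1 (-0.01) or shRad21_2 replicate 1 (-0.08). Without shRad21_1 replicate 1, Jun was called higher with shRad21_1 (0.54, adjusted p = 0.00538, over a range of 0.00249 to 0.677 across 20 alternatives).

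Junb encodes a JUN protein that forms AP-1 with weaker transactivation than JUN. It had 31.0, 26.5 and 27.4 CPM with shRad21_2, against 55.9, 105 and 108 CPM in shNT, and 21.5, 91.9 and 94.2 CPM with shRad21_1. The shRad21_2 libraries lay below all shNT libraries, and so did shRad21_1 replicate 1 alone of its group. With shRad21_2 Junb fell by 1.67 (3.17-fold lower, SE 0.46, edgeR adjusted p = 0.0149). That call was lost when shRad21_2 replicate 2 (-1.62, adjusted p = 0.0518) or replicate 3 (-1.64, adjusted p = 0.0531) was left out. Over 20 alternatives its adjusted p lay between 6.67e-07 and 0.0531. With shRad21_1 the value was -0.38 (SE 0.44, adjusted p = 0.644), not called, and its sign turned without shRad21_1 replicate 1 (0.05). The CPM ratio of Fos to Jun within a library was 0.0526, 0.0702 and 0.0711 with shRad21_2, 0.0427, 0.319 and 0.34 with shRad21_1 and 0.392, 0.549 and 0.563 in shNT. The ratio of Fosb to Fos varied less, from 0.0535 to 0.069 with shRad21_2, 0.109 to 0.17 with shRad21_1 and 0.152 to 0.181 in shNT.

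Of the EGR genes Egr1 fell with shRad21_2, by less than Fos and Fosb, and Egr2 was not called. Egr1 encodes a factor that binds GC-rich sites and is induced by growth factors and by neuronal activity. It had 218, 175 and 177 CPM with shRad21_2, against 397, 663 and 636 CPM in shNT, and 138, 746 and 769 CPM with shRad21_1. The shRad21_2 and shNT libraries did not overlap, and shRad21_1 held both the lowest and the highest values of the 9 libraries. With shRad21_2 Egr1 fell by 1.57 (2.97-fold lower, SE 0.50, edgeR adjusted p = 0.0275). The call was lost when any 1 of 5 libraries was left out, namely shNT replicate 2 (-1.44) or 3 (-1.48) or shRad21_2 replicate 1 (-1.68), 2 (-1.51) or 3 (-1.52), and with close pairs of libraries summed (-1.46). Under shRad21_1 its fitted change was -0.04 (SE 0.49, adjusted p = 0.974), and the sign turned without shNT replicate 2 (0.09) or 3 (0.06) or shRad21_1 replicate 1 (0.42).

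Egr2, known as KROX20 for its part in hindbrain segments and Schwann cell myelination, had 10.7, 13.9 and 14.4 CPM with shRad21_2, against 12.8, 44.6 and 42.8 CPM in shNT. In shRad21_1 it had 8.18, 51.8 and 53.6 CPM. shNT replicate 1 therefore lay among the shRad21_2 values and the groups overlapped. The fitted change with shRad21_2 was -1.37 (SE 0.62, edgeR adjusted p = 0.0987), not called. It was called without shNT replicate 1 (-1.75, adjusted p = 0.044) and without shRad21_1 replicate 1 (-1.37, adjusted p = 0.00993), and the adjusted p lay between 5.82e-06 and 0.247 over 20 alternatives. With shRad21_1 the value was 0.18 (SE 0.60), and its sign turned without shNT replicate 1 (-0.21) or shRad21_1 replicate 2 (-0.11) or 3 (-0.16).

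Of the IER genes, Ier3 lay below shNT with both hairpins and Ier2 with shRad21_2. Ier3 encodes a small protein known for modulating cell survival and ERK signalling. It had 31.3 and 33.1 CPM in shRad21_1 replicates 2 and 3 and 12.6 CPM in replicate 1, and 8.53, 6.69 and 9.02 CPM with shRad21_2, against 39.2, 58.7 and 57.9 CPM in shNT. It was the 1 member whose libraries lay below those of shNT under both hairpins without overlap. With shRad21_2 Ier3 fell by 2.68 (6.42-fold lower, SE 0.33, edgeR adjusted p = 1.93e-04). With shRad21_1 its change was -1.02 (2.02-fold lower, SE 0.31, adjusted p = 0.0667), not called by edgeR. With replicate number as a block, edgeR called it (-1.07, adjusted p = 0.036). Without shRad21_1 replicate 1 it was called (-0.69, adjusted p = 0.0315, range 0.00437 to 0.207 over 20 alternatives), and the DESeq2 Wald test and limma-voom called it with all libraries (adjusted p = 0.00668 and 0.0437).

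Ier2, which encodes a small nuclear protein, had 48.0, 51.5 and 57.1 CPM with shRad21_2, against 58.0, 108 and 111 CPM in shNT, and 26.3, 122 and 128 CPM with shRad21_1. The shRad21_2 libraries lay below those of shNT, with the closest pair at 57.1 and 58.0 CPM. Its fitted change was -0.83 with shRad21_2 (SE 0.47, edgeR adjusted p = 0.178), not called, and it was called with the same value without shRad21_1 replicate 1 (-0.83, adjusted p = 0.00622, range 1.93e-05 to 0.361). With shRad21_1 the change was -0.01 (SE 0.46, adjusted p = 0.993), and without shRad21_1 replicate 1 it was 0.43. Nr4a1, or NUR77, had 12.5, 21.4 and 20.4 CPM with shRad21_2, against 12.2, 41.9 and 41.7 CPM in shNT, and 9.81, 44.2 and 43.8 CPM with shRad21_1. As in Egr2, replicate 1 of shNT was as low as the shRad21_2 libraries. The Nr4a1 change was -0.82 with shRad21_2 (SE 0.56, edgeR adjusted p = 0.259) and 0.03 with shRad21_1 (SE 0.55, adjusted p = 0.981). With replicate number as a block the latter was -0.025. Neither was called in the main fit. With shRad21_2 Nr4a1 was called lower in 2 of 20 alternatives, over which its change lay between -1.21 and -0.578 and its adjusted p between 3.69e-05 and 0.511.

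**Figure D2:**
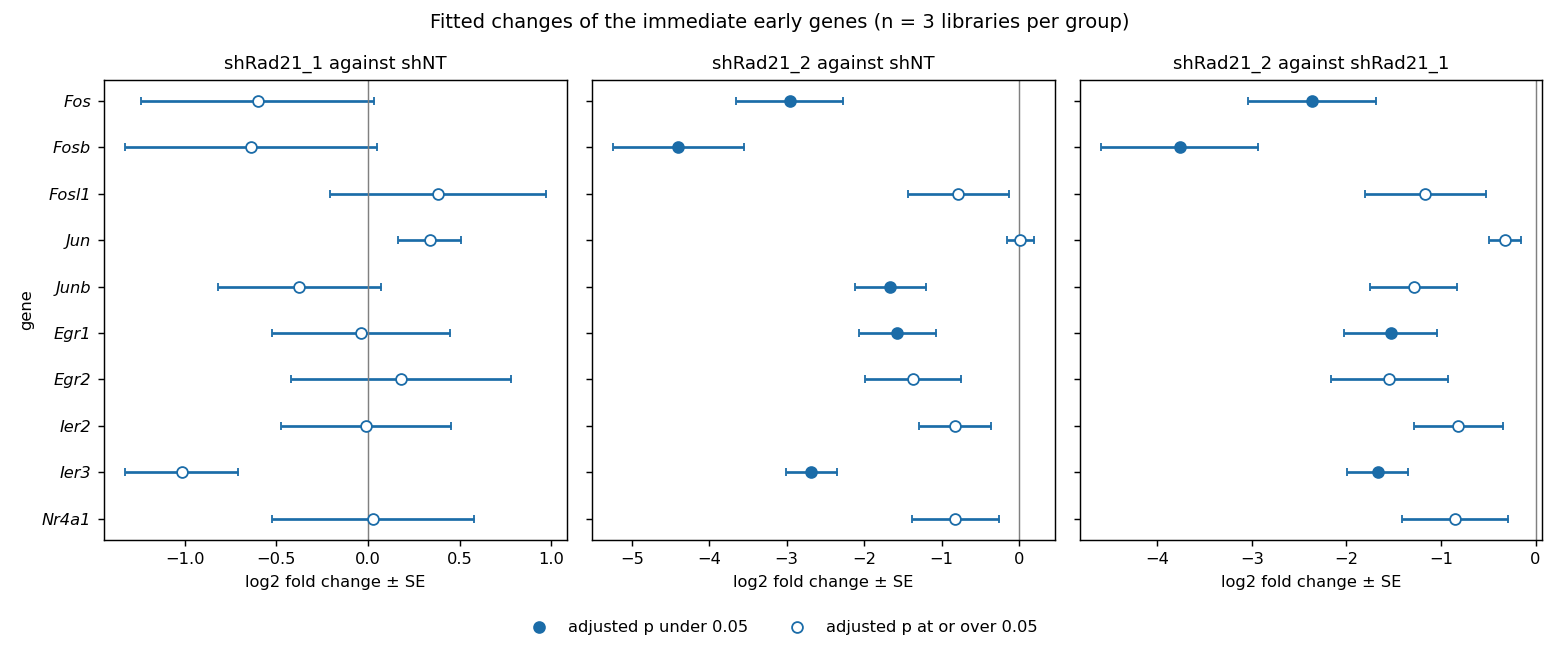
Fitted log2 fold changes of the 10 members (points) with their standard errors (bars) in the 3 comparisons, each with 3 libraries per group and its own horizontal range; filled points have an adjusted p under 0.05. None is filled for shRad21_1 against shNT, 5 are filled and negative for shRad21_2 against shNT, and 4 for shRad21_2 against shRad21_1.

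Counted over the list, shRad21_2 against shNT gave 5 of 10 members lower (Fos, Fosb, Junb, Egr1 and Ier3) and 0 higher, beside 22.5% of all 13560 genes lower and 21.1% higher. The median log2 fold change was -1.47 over the 10 members and 0.01 over all genes. The groups lay apart without overlap, shRad21_2 below shNT, in 6 of 10 members and 28.6% of all genes. The number lower was 3 without shRad21_2 replicate 2 or 3, and 7 without shRad21_1 replicate 1. In those fits 20.7%, 19.3% and 25.7% of all genes were lower. Fos, Fosb and Ier3 were called under all 20 alternatives tried. For shRad21_1 against shNT edgeR called 0 of 10 in either direction, beside 4.19% of all genes higher and 5.63% lower. At an unadjusted p under 0.05 there was 1 member, Ier3, lower, the DESeq2 Wald test and limma-voom each called 1 lower and 0 higher, and edgeR with replicate number as a block called 1 lower. The members' median was -0.02 against 0.01 over all genes, and Ier3 was the 1 of 10 whose libraries lay below those of shNT without overlap, beside 19.9% of all genes. Both comparisons share the shNT libraries.

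Set against each other, shRad21_2 gave lower levels than shRad21_1 in 4 of 10 members and higher levels in 0, beside 14.4% and 11.9% of all genes. Fos differed by -2.36 (SE 0.68, edgeR adjusted p = 0.0297), Fosb by -3.76 (SE 0.83, adjusted p = 0.00983), Egr1 by -1.53 (SE 0.50, adjusted p = 0.0456) and Ier3 by -1.67 (SE 0.32, adjusted p = 0.00556). Junb (-1.29, adjusted p = 0.061), Egr2 (-1.55, adjusted p = 0.0924), Ier2 (-0.82), Nr4a1 (-0.85), Jun (-0.32) and Fosl1 (-1.16) were not called. In 2 of 10 members, Ier3 and Fosl1, the shRad21_2 libraries lay below all shRad21_1 libraries, beside 19.8% of all genes. The median difference was -1.41 over the members and -0.00 over all genes. The spread within shRad21_1 weighed on these values: without its replicate 1 all members but Fosl1 were called, 9 in all, among them Jun (-0.52), Junb (-1.72), Egr2 (-2.02), Ier2 (-1.26) and Nr4a1 (-1.28). In that fit 17.9% of all genes were lower, and shRad21_1 held only replicates 2 and 3, with a chi-square per gene of 2.18. The number of members lower was 2 without any 1 of the other shRad21_1 libraries or of the shRad21_2 libraries. In those fits 9.42% to 13.2% of all genes were lower. Fos lost its call without shRad21_1 replicate 2 (-2.02) or 3 (-1.98) or shRad21_2 replicate 1 (-2.31), 2 (-2.35) or 3 (-2.42). Egr1 lost its call without any 1 library other than shRad21_1 replicate 1 (between -1.64 and -1.22 without each of the 8).

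In shRad21_1, replicate 1 stood below the rest of its group in most members, while Ier3 was below shNT in all 3 libraries. Replicate 1 was at least 2-fold lower than both other libraries of the group in 8 of 10 members, beside 4.72% of all tested genes. The mean of replicates 2 and 3 was 12.8 times replicate 1 for Fos, 19.0 times for Fosb, 6.44 times for Egr2, 5.50 times for Egr1, 4.75 times for Ier2, 4.48 times for Nr4a1, 4.32 times for Junb and 2.55 times for Ier3. Jun (1.65 times) and Fosl1 (1.58 times, from 9 counts) did not reach 2-fold. In shNT the library numbered 1 was 2-fold lower than both others in 3 of 10 members, beside 1.52% of all genes: Egr2 (3.42 times), Nr4a1 (3.43 times) and Fosl1 (4.10 times, from 3 counts). In shRad21_2 the count was 0 of 10, beside 1.12% of all genes. The labels do not say that libraries with the same number share a culture or a day.

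**Figure D3:**
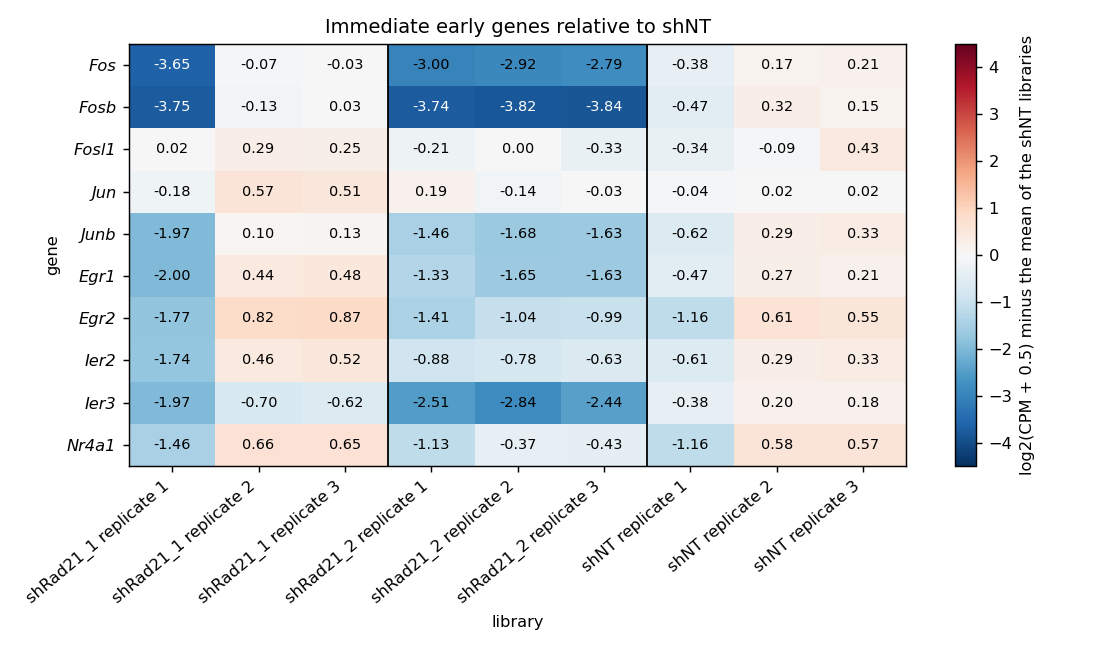
Level of each member (rows) in each library (columns) as log2(CPM + 0.5) minus the mean of the 3 shNT libraries, with the values printed in the cells and blue for lower. shRad21_1 replicate 1 reaches -3.65 for Fos and -3.75 for Fosb, close to the shRad21_2 libraries, while replicates 2 and 3 stand at -0.07 and -0.03 for Fos.

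On the scale of log2(CPM + 0.5) relative to the mean of shNT, the median over the 10 members was -1.87, 0.37 and 0.36 in the shRad21_1 libraries and -1.37, -1.34 and -1.31 in the shRad21_2 libraries, against -0.47, 0.28 and 0.27 in the shNT libraries. shRad21_1 replicate 1 was thus lower than each shRad21_2 library in this median, although its Rad21 level, at 187 CPM, was above the 82.0 to 91.2 CPM of those libraries and close to the 174 and 178 CPM of its own group. Without shRad21_1 replicate 1 the sign of 3 members turned in shRad21_1 against shNT, namely Junb (0.05), Egr1 (0.42) and Ier2 (0.43), and 1 member was called higher (Jun) and 1 lower (Ier3). In that fit 4.69% of all genes were higher and 6.97% lower.

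**Figure D4:**
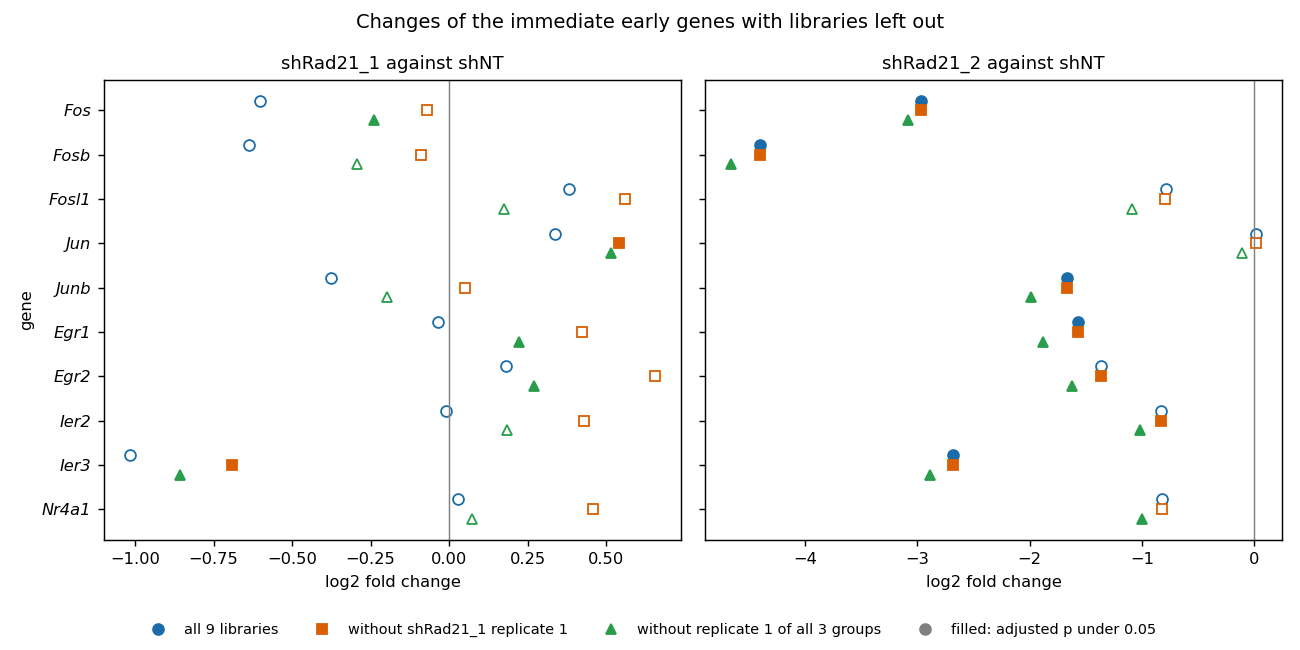
Log2 fold change of each member against shNT for shRad21_1 (left) and shRad21_2 (right) with all 9 libraries (circles), without shRad21_1 replicate 1 (squares) and without the libraries numbered 1 of all 3 groups (triangles); filled symbols have an adjusted p under 0.05 and the horizontal ranges differ. On the left Egr1 moves to 0.42 without shRad21_1 replicate 1, whereas on the right Fos, Fosb and Ier3 stay filled and negative in all 3 fits.

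Other genes of the same response were read against the shares of all genes called with shRad21_2, 21.1% higher and 22.5% lower. Of 31 further immediate early genes tested, 6 rose and 6 fell with shRad21_2. Their median log2 fold change was 0.01 with shRad21_2 and 0.18 with shRad21_1, the same scale on which all genes stood at 0.01 and 0.01. Gadd45b, a stress-induced regulator of DNA demethylation and p38 signalling, had 0.93, 0.792 and 1.03 CPM with shRad21_2, against 3.68, 6.70 and 6.45 CPM in shNT, and fell by 2.61 (edgeR adjusted p = 2.87e-04). Btg2, an antiproliferative gene, fell by 1.32. Myc rose by 1.04, to 358, 293 and 324 CPM with shRad21_2 against 127, 176 and 170 CPM in shNT, and the kinase gene Plk2 rose by 0.97. The number lower with shRad21_2 reached 15 when the libraries numbered 1 of all groups were left out, 11 when that of shNT alone was and 10 when that of shRad21_1 alone was. Egr4 and Egr3, of the EGR family, are named after their values were seen. Egr4 had 1.84, 1.76 and 2.91 CPM with shRad21_2 and 0.734, 8.03 and 9.10 CPM with shRad21_1, against 7.87, 17.9 and 19.2 CPM in shNT, and its log2 fold change with shRad21_2 was -2.79 (edgeR adjusted p = 0.00958). Egr3 had 12.8, 19.0 and 18.1 CPM with shRad21_2 and 13.7, 74.8 and 74.4 CPM with shRad21_1, against 10.4, 54.8 and 53.0 CPM in shNT, and was not called (-1.25, adjusted p = 0.148).

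Of 24 receptors and kinases on the route from the growth factor receptors to ERK, 3 rose and 6 fell with shRad21_2 (all genes 21.1% and 22.5%). Fgfr2, an FGF receptor, had 3.10, 2.99 and 3.08 CPM with shRad21_2, against 23.1, 22.7 and 23.1 CPM in shNT, and fell by 2.91 (edgeR adjusted p = 4.88e-07). Rps6ka5, the kinase MSK1 that acts on CREB and histone H3 at immediate early promoters, fell by 0.59, while Hras rose by 0.53 and the exchange factor gene Sos2 by 0.44. The number higher was 5 without shRad21_2 replicate 2. Among 16 ERK feedback and response genes, 3 rose and 1 fell with shRad21_2. Spred2, an inhibitor of RAS signalling, rose by 0.51. The number lower was 8 without the libraries numbered 1 of all groups, 5 without those of shNT and shRad21_1, 3 without shRad21_1 replicate 1, 2 without shNT replicate 1 or shRad21_2 replicate 1 and 0 without shNT replicate 2 or shRad21_2 replicate 2 or 3.

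Of 17 factors that act at immediate early promoters (the SRF, ELK, CREB, CRTC and MEF2 genes and their coactivators), 5 rose with shRad21_2. None fell by edgeR, at an unadjusted p under 0.05, by DESeq2 or by limma-voom. Mef2d, a MADS box factor, rose by 0.65 (60.6, 75.5 and 59.2 CPM with shRad21_2, against 35.1, 45.7 and 43.7 CPM in shNT). The number higher was 9 without shRad21_2 replicate 3, and 1 fell without shRad21_2 replicate 2. Of 10 AP-1 partners tested, 2 rose and 5 fell with shRad21_2. Maf, a large MAF protein, fell by 2.44 (adjusted p = 1.32e-05), with 8.48, 6.22 and 6.11 CPM with shRad21_2 against 39.5, 36.2 and 37.6 CPM in shNT. The number of partners lower was between 1 and 3 without each of 7 libraries, all but shNT replicate 1 and shRad21_1 replicate 1, and the number higher was 1 without any 1 shNT library or shRad21_2 replicate 2. Of 4 EGR corepressors and NR4A partners, 2 rose with shRad21_2: Nab1, which represses through EGR proteins (0.51), and Rxrb, a partner of nuclear receptors (0.46). Of 11 AP-1 target genes known from other cells, 2 rose (Cd44 by 1.24 and Plaur by 1.36) and 4 fell with shRad21_2, among them Timp1 (-1.88) and Lif (-1.12). The number lower was 2 without any 1 of 7 libraries, all but shNT replicate 1 and shRad21_1 replicate 1.

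Zfp36 encodes tristetraprolin, which binds AU-rich elements and speeds the decay of immediate early mRNAs, and is itself induced by the same signals. It had 18.3, 22.9 and 23.2 CPM with shRad21_2, against 37.3, 98.5 and 93.9 CPM in shNT, and 10.9, 76.6 and 72.8 CPM with shRad21_1, and its 4 lowest libraries were those of Fos. With shRad21_2 Zfp36 fell by 1.83 (SE 0.59, edgeR adjusted p = 0.0303), a call that was lost without shNT replicate 2 (-1.61) or 3 (-1.66) or shRad21_2 replicate 1 (-1.73), 2 (-1.88) or 3 (-1.89). Among 12 genes of AU-rich decay, 2 rose and 2 fell with shRad21_2. Zfp36l1, of the same family, fell by 0.64, and Hnrnpd, which encodes AUF1, rose by 0.51. Without any 1 of shNT replicates 2 and 3 and shRad21_2 replicates 1 and 2, 1 decay gene rose and 1 fell, and 1 fell without shRad21_2 replicate 3.

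In their median level, heat shock and handling genes did not separate the libraries as the members did. The median log2 level of 12 such genes relative to shNT was 0.12, 0.04 and 0.05 in the shRad21_1 libraries, 0.23, 0.06 and 0.22 in the shRad21_2 libraries and 0.04, -0.05 and -0.03 in the shNT libraries. With shRad21_2 3 of them rose and 2 fell, beside 21.1% and 22.5% of all genes. Those lower were Hsph1, by 0.46, and Hspa1a, named after its values were seen. The number higher was 0 without shNT replicate 2 or 3 or shRad21_2 replicate 3. The number lower was 4 without shRad21_2 replicate 1 and 1 without any 1 of shNT replicates 2 and 3, shRad21_1 replicate 2 and shRad21_2 replicates 2 and 3.

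Most astrocyte markers were lower with shRad21_2. Of 8 astrocyte markers 6 fell with shRad21_2. By edgeR 0 rose, while 1 was higher at an unadjusted p under 0.05, 1 by DESeq2 and 0 by limma-voom. Their summed level ran from 372 to 598 CPM with shRad21_1 and 230 to 251 CPM with shRad21_2, against 694 to 730 CPM in shNT. Within shRad21_1 it was 372 CPM in replicate 1 and 591 and 598 CPM in replicates 2 and 3, and their median log2 level was -1.46 in replicate 1, against -0.17 and -0.07. In shNT replicate 1 their median was 0.07, where that of the members was -0.47. The median of the 31 other immediate early genes was -0.49 in shNT replicate 1 and -0.14 in shRad21_1 replicate 1. With shRad21_2 Aldh1l1 fell by 2.79, the bicarbonate transporter gene Slc4a4 fell by 2.55, the ATPase subunit gene Atp1b2 fell by 3.43 and S100b fell by 2.55. Gfap, the astrocyte filament gene, had 0, 0.0293 and 0.0856 CPM with shRad21_2 and 0.19, 14.7 and 15.1 CPM with shRad21_1, against 4.62, 8.59 and 10.49 CPM in shNT. Gja1 and Slc1a2, of the same list and named after their values were seen, were not called. Gja1, a gap junction gene, had 169, 143 and 154 CPM with shRad21_2 and 218, 122 and 118 CPM with shRad21_1, against 134, 98.2 and 92.9 CPM in shNT (log2 fold change 0.52 with shRad21_2), and was highest in shRad21_1 replicate 1. Slc1a2, a glutamate transporter gene, had a log2 fold change of -0.68. All 8 markers had counts in some library, so none of the list was at 0 throughout. The number higher was 1 without shNT replicate 1 or shRad21_1 replicate 1. The part of astrocyte-like cells in the members' levels was not tested, and in bulk RNA fewer cells of a type and less RNA per cell cannot be told apart.

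Nes, which encodes the intermediate filament of neural stem cells, had 2695, 2451 and 2325 CPM with shRad21_2 and 1962, 1191 and 1229 CPM with shRad21_1, against 1325, 1153 and 1174 CPM in shNT, and all 10 stem cell markers passed the filter on low counts. Of these 3 rose and 3 fell with shRad21_2, with log2 fold changes of 1.03 for Nes, 0.50 for Pax6, 2.55 for Prom1 and -0.95 for Slc1a3, a glutamate transporter gene that astrocytes share. The number lower was 5 without shRad21_1 replicate 1. Their summed level was 6896 to 8130 CPM with shRad21_1 and 7278 to 8255 CPM with shRad21_2, against 8287 to 8653 CPM in shNT. Of 7 neuron markers 1 rose and 4 fell with shRad21_2, and Gad1, which encodes the enzyme that makes GABA, fell by 2.93. Their summed level was 905 to 1041 CPM with shRad21_1 and 951 to 1082 CPM with shRad21_2, against 772 to 916 CPM in shNT, and Slc17a6 was at 0 in all 9 libraries. Most of that sum was Map2, the 1 that rose, with 884, 756.5 and 739.5 CPM in shNT. The median log2 fold change of the 7 neuron markers with shRad21_2 was -1.29. The number of neuron markers higher was 2 without shNT replicate 1 or shRad21_1 replicate 1 and 0 without shNT replicate 2 or 3.

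Of 6 oligodendrocyte lineage markers 1 rose and 4 fell with shRad21_2, and Pdgfra fell by 3.59. Summed, they stood at 3089 to 3226 CPM with shRad21_1 and 2694 to 3086 CPM with shRad21_2, against 2750 to 2883 CPM in shNT. The number lower was 2 without shNT replicate 2 or shRad21_2 replicate 1 or 3. Markers of other cell types were near 0. The 9 microglia markers summed to between 0.343 and 3.16 CPM per library, with Cx3cr1, Aif1, C1qa and C1qb at 0 in all libraries, and 1 of them, P2ry12, was tested and fell with shRad21_2. The 6 endothelium markers summed to between 1.63 and 4.66 CPM, of which 2 were tested and Kdr fell with shRad21_2. The 6 mesenchyme markers summed to between 0.293 and 1.13 CPM, with Dcn at 0, and 1 of 2 tested, Pdgfrb, fell with shRad21_2, a call lost without any 1 of shNT replicates 1 and 2 and the 3 shRad21_2 libraries (between -2.56 and -1.999).  Of the list genes named so far, Egr3, Egr4, Hspa1a, Gfap, Gja1 and Slc1a2 were not refitted one by one under the alternatives. The others named with a change under shRad21_2 were called under each of up to 20 alternatives, except Zfp36 and Pdgfrb.

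With shRad21_1 fewer genes of these lists were called by edgeR, as was so over all genes. Of all 13560 genes 4.19% were higher and 5.63% lower with shRad21_1, against 21.1% and 22.5% with shRad21_2. Among the other immediate early genes 2 rose, Myc by 0.72 and Plk2 by 0.90, and 3 fell, among them Gadd45b by 1.38. The number higher was 5 without shRad21_1 replicate 1 and 1 without shNT replicate 1 or 3 or shRad21_1 replicate 2 or 3, and the number lower was 0 without shNT replicate 2 or 3 and 1 without shRad21_1 replicate 2. In the route from receptors to ERK 1 gene fell, Fgfr2 by 0.79, with 11.5, 14.0 and 14.3 CPM in the shRad21_1 libraries. Among the ERK feedback genes 1 rose (Spred2), among the AP-1 partners 1 fell, among the genes of AU-rich decay 1 rose and among the stem cell markers 1 rose (Prom1). The count of ERK feedback genes was 2 without shRad21_2 replicate 1 and 0 without any 1 shNT library or shRad21_1 replicate 2 or 3. That of AP-1 partners was 0 without any 1 of shNT, shRad21_1 and shRad21_2 replicates 2 and 3, and that of decay genes was 0 without any 1 shNT library or shRad21_1 replicate 2 or 3. Among neuron markers 1 rose and 1 fell (Gad1), and 2 rose without shNT replicate 1, shRad21_1 replicate 3 or shRad21_2 replicate 1. Among oligodendrocyte lineage markers 1 fell (Pdgfra), and 0 without any 1 shNT library. With replicate number as a block, 4 other immediate early genes, 2 ERK feedback genes, 1 AP-1 partner and 1 AP-1 target rose, and 1 decay gene and 1 stem cell marker fell.

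For the astrocyte markers edgeR called 0 of 8 with shRad21_1, 2 were lower at an unadjusted p under 0.05, and DESeq2 and limma-voom called 0. Of these markers 1 fell without shRad21_1 replicate 1. For the heat shock genes edgeR called 0 of 12, 1 was lower at an unadjusted p under 0.05 and by DESeq2, and limma-voom called 0. Of the 11 AP-1 target genes edgeR called 0, 3 were higher and 1 lower at an unadjusted p under 0.05, DESeq2 called 2 higher and 1 lower and limma-voom 0, and without shRad21_1 replicate 1 edgeR called 4 higher and 1 lower. Of the 17 promoter factors edgeR called 0, 1 was higher at an unadjusted p under 0.05 and by DESeq2, limma-voom called 0, and 1 rose without shRad21_2 replicate 3.

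**Figure D5:**
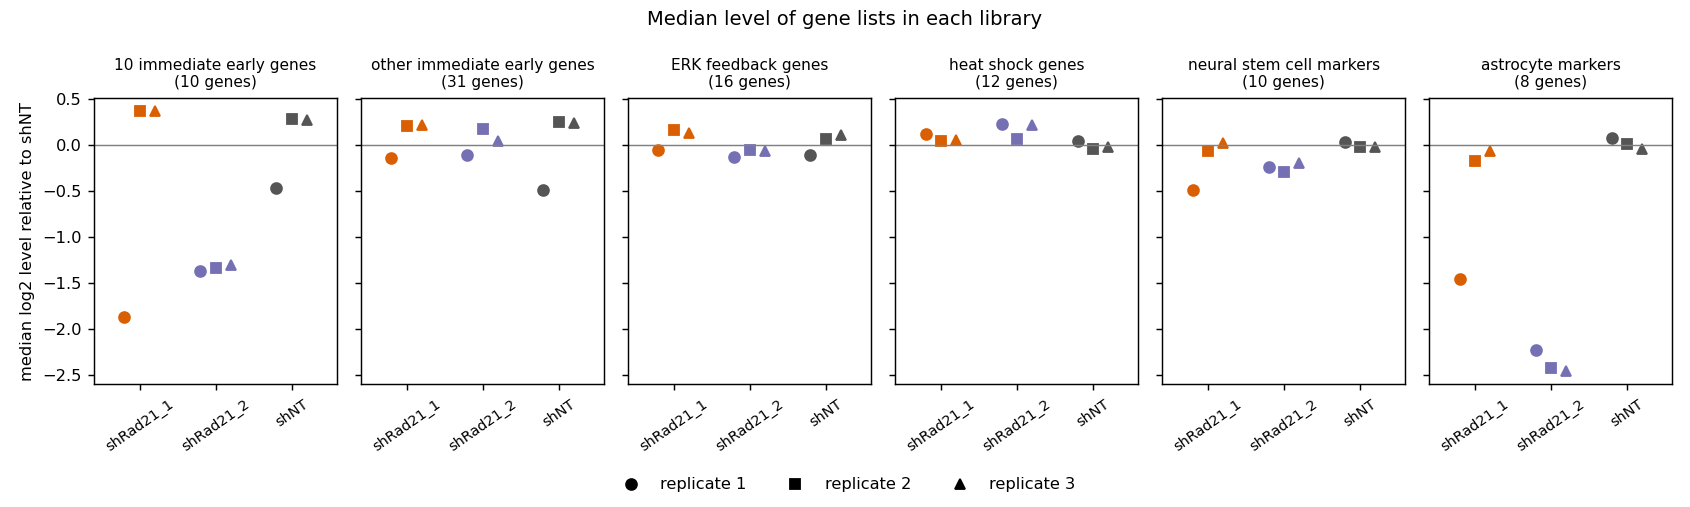
Median over the genes of 6 lists of log2(CPM + 0.5) minus the mean of shNT, in each library of shRad21_1, shRad21_2 and shNT, with a marker shape for each replicate number. The members and the astrocyte markers are low in shRad21_1 replicate 1 (-1.87 and -1.46) and in the shRad21_2 libraries, while the heat shock genes stay between -0.05 and 0.23.

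The nearest tested genes on either side of the members, 20 in all at gaps of 0.31 to 915 kb, were not lower as a group. With shRad21_2 3 of the 20 rose and 4 fell, beside 21.1% and 22.5% of all genes, and their median log2 fold change was 0.11. Flot1, which encodes a membrane scaffold protein and lies 0.31 kb from Ier3, fell by 1.53 with shRad21_2 (edgeR adjusted p = 4.08e-04), and Ddr1, a collagen receptor gene on the other side of Ier3, fell by 0.53. Hook1 beside Jun fell by 1.46 and Reep2 beside Egr1 by 0.80. Grasp beside Nr4a1 rose by 1.95, Rtn2 beside Fosb by 0.58 and Rnaseh2a beside Junb by 0.42. With shRad21_1 Grasp rose by 1.40 while Flot1 fell by 0.83 and Jdp2, the neighbour of Fos, fell by 1.19. The call of Flot1 with shRad21_1 was lost without shNT replicate 2 (-0.74) or 3 (-0.70), shRad21_1 replicate 3 (-0.89) or shRad21_2 replicate 3 (-0.83). That of Jdp2 with shRad21_1 was lost without any 1 of 7 libraries, all but shNT replicate 1 and shRad21_2 replicate 1 (between -1.29 and -0.99). Counting by strand is not recorded in the labels or notes, so reads of Jun and its antisense gene Junos, of Junb and Prdx2, and of Fosl1 and Ccdc85b, which overlap on opposite strands, cannot be told apart.

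Among 11660 other genes with a mean log2 CPM of at least 1, those whose log2 CPM most closely followed the mean of the 10 members over the 9 libraries included Fgfr3, Rcn3, Iqce, Nat14 and Ggt7, with Pearson's r of 0.991, 0.991, 0.989, 0.986 and 0.986. Fgfr3, an FGF receptor, had 8.13, 63.4 and 63.5 CPM with shRad21_1 and 9.59, 12.8 and 11.8 CPM with shRad21_2, against 35.5, 56.1 and 55.8 CPM in shNT. After each group's mean was taken off, the closest included Shisa3, Grik5, Klf10, Ptgds and Iqce, with r between 0.993 and 0.996. Klf10, a TGF-beta-induced zinc finger gene, is itself in the list of other immediate early genes. It had 82.1, 219 and 218 CPM with shRad21_1 and 120.5, 132 and 139 CPM with shRad21_2, against 141, 221 and 219 CPM in shNT. These values describe 9 points that share their groups and, in shRad21_1 and shNT, a library set apart from a close pair.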

How the data were processed

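Messenger RNA of 9 libraries was measured by RNA-seq. Per the submitters' processing notes, the authors used FastQC, cutadapt, Trim Galore, Bowtie2, RSEM and the mouse build mm10, and deposited whole-number counts per gene symbol that are not normalised. Not given in the sources used here: tool versions, annotation, strand setting and how RSEM estimates were rounded. Reads of near-identical genes may be split by the estimation.

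Counts were tested as deposited with the edgeR 4.0.16 quasi-likelihood test under R 4.3.3. Scaling was by TMM and low genes were dropped by filterByExpr. The fit held the 9 libraries as 3 groups without a block. For shRad21_1 against shNT, deviations from the group means correlated over 0.1 in all 3 same-number pairs (0.287, 0.166 and 0.176), so values with the number as a block are given where they change a call. The labels name nothing that the numbers share, and in the other comparisons not all pairs passed 0.1. Tests were two-sided, with Benjamini-Hochberg adjustment over 13560 genes, and called at an adjusted p under 0.05 with no minimum fold. CPM values use TMM-scaled totals, and errors are SD over 3 libraries. The test was run on simulated counts first. Total counts are given with the results.

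Alternatives were DESeq2 size factors, library totals, the DESeq2 1.42.0 Wald test, limma-voom (limma 3.58.1), a looser and a stricter filter (1 CPM in 3 libraries), fits of 2 groups, a replicate block, each library left out, libraries numbered 1 left out together, and close pairs (replicates 2 and 3 of shNT and of shRad21_1) summed.

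The members, the lists and the alternatives were chosen with earlier results of these data known. Named genes are the 10 members, Rad21, the 4 genes of each list with the smallest p in shRad21_2 against shNT (of which those that bear on the text are given), the nearest tested neighbours, and the 6 genes most like the members in pattern by each measure, of which some are not reported here. Positions came from GENCODE M21 (GRCm38), matched by symbol for 13033 tested genes (96.1%), and promoters from RefSeq (GRCm38.p6).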

Additional observations from a re-analysis of the deposited data

Results flagged for a closer look

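The effects of the hairpins on 4 members differed from each other in the direct test of shRad21_2 against shRad21_1 (edgeR quasi-likelihood test, n = 3 libraries per group). Fosb had a log2 fold change of -3.76 (adjusted p = 0.00983), with 0.957 ± 0.055 CPM under shRad21_2 and 13.1 ± 10.5 CPM under shRad21_1. Fos had -2.36 (adjusted p = 0.0297), with 15.8 ± 1.16 CPM under shRad21_2 and 81.4 ± 62.5 CPM under shRad21_1. Ier3 had -1.67 (adjusted p = 0.00556), with 8.08 ± 1.23 CPM under shRad21_2 and 25.7 ± 11.3 CPM under shRad21_1, and its groups did not overlap. Egr1 had -1.53 (adjusted p = 0.0456), with 190 ± 24.4 CPM under shRad21_2 and 551 ± 358 CPM under shRad21_1. shRad21_1 replicate 1 lay below all 3 shRad21_2 libraries in Fos (9.21 CPM) and Egr1 (138 CPM). In Fosb it lay within their range (1.01 CPM). In these 3 genes all 3 shRad21_2 libraries were lower than shRad21_1 replicates 2 and 3. Over 20 alternatives the call of Ier3 was kept in 20, that of Fosb in 19, that of Fos in 11 and that of Egr1 in 8.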

How the results depend on the processing

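The number of members higher with shRad21_1 than with shNT, 0 in the report, was 3 without the libraries numbered 1 of all groups, 1 without those of shNT and shRad21_1, and between 0 and 1 without each library in turn. The number lower, also 0, was 1 with the DESeq2 Wald test, with limma-voom and with the replicate block, 2 and 1 without those 2 sets of libraries, and between 0 and 1 without each library. Of all genes 9.04% were higher and 11.5% lower without the first set, and 4.49% and 7.05% without the second. Without each library the shares were 1.26% to 4.69% higher and 2.1% to 6.97% lower. With close pairs summed they were 0.469% and 0.484%. For shRad21_2 against shNT the number lower, 5, was 8 without either set and between 3 and 7 without each library. Of all genes 27.9% and 25.4% were lower without the sets, 17.1% to 25.7% without each library and 15.6% with close pairs summed. Between the hairpins the number lower with shRad21_2, 4, was 1 with limma-voom, 2 with only both groups in the fit, 2 with the replicate block, 2 with close pairs summed, 9 without either set of libraries and between 2 and 9 without each library. Of all genes 13%, 10.3%, 14.6% and 6.75% were lower in the first 4 of these fits. The share was 22% and 18.8% without the sets and 9.42% to 17.9% without each library. The numbers of members higher with shRad21_2, 0 in both comparisons, were 0 throughout. Where not shown by fewer libraries in the fit, the cause was not tested.

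Signs that turned with shRad21_1 against shNT were those of Egr1 (0.22 without either set of libraries; -0.35 to 0.42 without each library), Egr2 (-0.06 with limma-voom; -0.21 to 0.66), Ier2 (0.18 without either set; -0.32 to 0.43), Nr4a1 (-0.082 with limma-voom, -0.025 with the replicate block, -0.004 with close pairs summed; -0.36 to 0.46), Junb (-0.66 to 0.051) and Fosl1 (-0.004 to 1.28). With shRad21_2 against shNT they were those of Jun (-0.058 with library totals, -0.105 and -0.006 without the sets; -0.082 to 0.088), Fosl1 (-1.20 to 0.11) and Nab2 (-0.005 without the libraries numbered 1 of all groups). Of 1574 fits of the other named genes, 1423 kept direction and side of the threshold.

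The main fit did not pair libraries by replicate number in any comparison, and values with the number as a block come from an alternative fit. Over all comparisons 5 of 9 same-number pairs had a correlation over 0.1 (lowest 0, highest 0.287), and 3 of 9 libraries correlated best with their own number. In the comparisons of shRad21_2, the replicate block added Egr2 to the calls of shRad21_2 against shNT (-1.10) and took Fos (-1.99) and Egr1 (-1.26) from those between the hairpins. Depth limits Fosl1 alone among the members.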
